A study of Mus musculus with 11 samples.

Results

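Hpca, Nptx1, N4bp3, Shisa2, Tmtc1, Susd4, Esyt1, 9530053A07Rik and D630003M21Rik are 9 genes of the 22619 measured chosen by their low levels in sonidegib-treated SMB21 cells, against either the untreated parental cells or the resistant clones. Low readout in the sonidegib libraries therefore chose them, and their levels there are given as a description. Tools run over all genes also fitted them in that contrast, and no result about them is drawn from those calls. SMB21 is a mouse medulloblastoma line grown as neurospheres, and every group shared its Ptch mutant background (strain Ptch1tm1Mps/J). Parental cells left untreated gave 3 libraries, those given sonidegib for 24 h gave 2, Sufu mutant clones gave 2 and Ofd1 mutant clones gave 4. All clones came out of a transposon screen, and the series title ties the mutant cells to drug resistance. The Sufu libraries were single clones, R13 (replicate 1) and R1 (replicate 2). Clone R14 gave Ofd1 replicates 1 and 2, R16 gave replicate 3 and R25 replicate 4, so the 4 Ofd1 libraries stand for 3 clones. The labels do not say whether the clones were kept in drug, nor what each transposon insertion did to its gene.

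Ptch1 is the receptor that holds the Hedgehog transducer Smoothened in check, and its loss in cerebellar granule cell progenitors gives medulloblastoma driven by Gli transcription factors. Sonidegib (LDE) binds and inhibits Smoothened. Sufu restrains the Gli proteins downstream of Smoothened, and Ofd1 is a centriole protein needed for the primary cilium, where Smoothened signals. The genes described here are not one pathway. Hpca (hippocalcin) is a calcium sensor of neurons, Nptx1 (neuronal pentraxin 1) is a secreted protein that gathers AMPA-type glutamate receptors at synapses, and N4bp3 is a binding partner of the ubiquitin ligase Nedd4. Shisa2 holds Wnt and FGF receptors in the endoplasmic reticulum, Tmtc1 adds O-linked mannose to cadherins in the same organelle, and Esyt1 tethers it to the plasma membrane and moves lipid. Susd4 is a membrane protein with sushi domains that restrains complement. 9530053A07Rik is listed by RefSeq with the synonym FCGBP and lies beside Fcgbp, a mucin-like protein with von Willebrand D domains. D630003M21Rik is a protein-coding gene without an assigned role.

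RefSeq promoters (GRCm38.p6, 250 bases before to 50 after each start) were matched for 8 of the 9 genes, with 11 promoters in all. Nptx1 had no entry. Both strands were searched for the Gli motif TGGGTGGTC, for its first 7 letters TGGGTGG, which lie inside it, and for the E-box CAGCTG, a motif of granule lineage bHLH factors. The whole Gli motif was in 0 of the 11 promoters, against 0.253% of 32851 promoters. Its 7-letter core was in 2 of them, those of Hpca and Tmtc1, against 9.3% of all promoters, and the E-box in 3 (Hpca, Tmtc1 and Esyt1), against 16.3%. A match is a description of letters, not of binding. The 250 bases before the start are printed for Tmtc1, which holds the core 207 bases and the E-box 126 bases before its start (capitals), and for 9530053A07Rik and Shisa2, which hold neither. These 3 genes are shown because the depth of their sonidegib difference varied least between parental libraries. The windows are chr6:148444353-148444602 on the minus strand, chr7:28129216-28129465 on the plus strand and chr14:59625031-59625280 on the plus strand.
Tmtc1: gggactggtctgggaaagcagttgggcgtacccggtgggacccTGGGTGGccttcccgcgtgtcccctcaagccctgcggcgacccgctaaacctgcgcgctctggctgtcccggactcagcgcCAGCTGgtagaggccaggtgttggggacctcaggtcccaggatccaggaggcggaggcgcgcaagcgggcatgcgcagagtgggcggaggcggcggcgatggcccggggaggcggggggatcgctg
9530053A07Rik: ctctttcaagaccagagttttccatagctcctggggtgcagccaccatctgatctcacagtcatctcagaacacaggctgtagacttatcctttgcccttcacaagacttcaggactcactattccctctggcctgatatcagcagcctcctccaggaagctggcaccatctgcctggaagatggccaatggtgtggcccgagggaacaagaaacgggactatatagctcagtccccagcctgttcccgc
Shisa2: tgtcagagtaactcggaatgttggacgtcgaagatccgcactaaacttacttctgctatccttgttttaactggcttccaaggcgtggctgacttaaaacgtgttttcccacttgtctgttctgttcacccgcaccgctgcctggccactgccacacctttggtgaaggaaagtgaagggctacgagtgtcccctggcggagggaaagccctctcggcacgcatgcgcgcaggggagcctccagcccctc
The 3 sequences differ in base composition: G and C make up 72.0% of the Tmtc1 stretch, 53.6% of that of 9530053A07Rik and 56.0% of that of Shisa2.

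Libraries held 24308451 to 38241595 counts. Levels are CPM, a gene's counts relative to a library size scaled by TMM. That factor is computed after setting aside the genes with the most extreme ratios between libraries and the most extreme abundances. Markers of granule cell progenitors summed to 1691 to 3837 CPM in the 11 libraries, while microglia markers summed to at most 0.371 CPM and fibroblast and pericyte markers to at most 0.932 CPM. Oligodendrocyte markers summed to at most 10.3 CPM and endothelium markers to at most 13.2 CPM, and neuron and astrocyte markers are given below. Sonidegib replicate 2 stood apart in transcript length, with a Spearman correlation across 13465 genes of -0.491 between length and deviation from the mean log2 level, against -0.0139 to 0.207 in the other 10 libraries. Parental replicate 3 stood apart in the level of several of the 9 genes, as given gene by gene below. In bulk RNA, fewer cells of a type and less RNA per cell cannot be told apart. Gli1, the Hedgehog target used here as a reference, measured 224, 219.6 and 243 CPM in the parental libraries and 7.68 and 8.82 CPM after sonidegib.

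Of the 9 genes, 8 were lower in both sonidegib libraries than in every parental library. Susd4 was the exception. Among 12615 genes averaging 1 CPM or more, 16.9% showed that pattern. The edgeR fit called 0.0652% of all genes in this contrast and 1 of the 9, 9530053A07Rik, and DESeq2 called 5.15% of all genes and 8 of the 9. Since these levels chose the genes, nothing is read from those counts. The ratio of the parental mean to the sonidegib mean ran from 2.65 for Esyt1 to 11.7 for D630003M21Rik, against 27.7 for Gli1. The pair of sonidegib libraries lay close together, with the higher 1.01 to 1.38 times the lower for each of the 9.

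**Figure D1:**
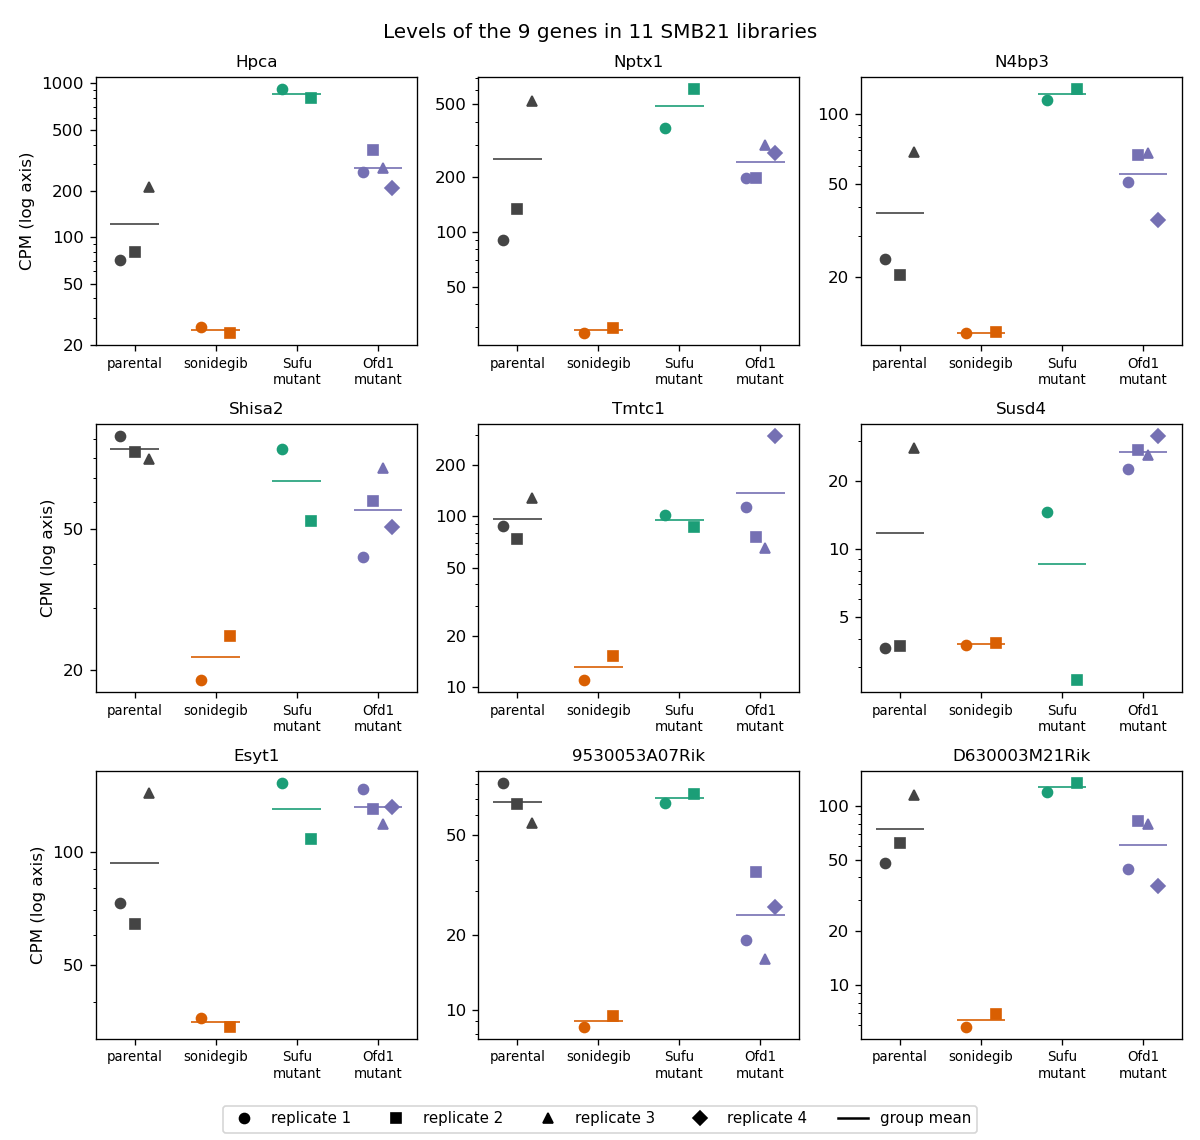
Levels of the 9 genes, 1 panel per gene, as TMM-scaled CPM on a log axis that differs between panels; points are libraries, their shape gives the replicate and the line is the group mean. In 8 panels the sonidegib points are the lowest of all, while in the Susd4 panel they sit beside parental replicates 1 and 2, and parental replicate 3 is far above the other parental libraries for Nptx1, Hpca, N4bp3 and Susd4.

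Hpca, the calcium sensor, measured 71.2, 80.3 and 212 CPM in parental replicates 1 to 3 and 26.1 and 23.8 CPM after sonidegib. In the Sufu clones it reached 915 CPM (R13) and 799.8 CPM (R1), and in the Ofd1 libraries 266, 369, 281 and 208 CPM. Both Sufu clones stood above every other library, and the Ofd1 libraries overlapped only parental replicate 3. Group means ± SD were 121 ± 79.1 CPM (parental, n = 3), 24.98 ± 1.62 CPM (sonidegib, n = 2), 857 ± 81.3 CPM (Sufu, n = 2) and 281 ± 66.3 CPM (Ofd1, n = 4). The order of the levels was thus Sufu, Ofd1, parental, sonidegib, and of these neighbours only Ofd1 and parental overlapped.

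Nptx1, the secreted synaptic pentraxin, had parental levels of 90.6, 133 and 524 CPM, against 27.9 and 29.8 CPM with sonidegib. Sufu clones R13 and R1 gave 369.8 and 604 CPM, and the Ofd1 libraries gave 197, 197, 298 and 270.5 CPM. Parental replicate 3 lay between the Sufu clones, and the Ofd1 libraries were inside the parental range. The parental mean of 249 ± 239 CPM had an SD nearly as large as itself, while the sonidegib mean was 28.8 ± 1.39 CPM.

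N4bp3, the Nedd4 partner, measured 23.9, 20.5 and 69.0 CPM in the parental libraries and 11.6 CPM in the first sonidegib library, with 11.7 CPM in the second. It stood at 115 and 127 CPM in the Sufu clones and at 51.1, 66.7, 68.2 and 35.0 CPM in the Ofd1 libraries. As for Hpca, the Sufu clones were above all parental libraries, and the Ofd1 libraries lay between parental replicates 1 and 3.

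Shisa2, the receptor-retaining protein, was even across parental libraries at 92.0, 82.8 and 79.1 CPM and measured 18.7 and 24.9 CPM after sonidegib. Its levels were 84.4 and 53.0 CPM in the Sufu clones and 41.7, 60.0, 74.5 and 50.9 CPM in the Ofd1 libraries. All 4 Ofd1 libraries were below all parental libraries, while the Sufu clones straddled the low end of the parental range.

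Tmtc1, the mannosyltransferase, measured 87.4, 73.5 and 128 CPM in parental cells and 11.04 and 15.2 CPM under sonidegib. The Sufu clones, at 102 and 86.9 CPM, were inside the parental range. Ofd1 libraries spread from 65.4 CPM (R16) to 293 CPM (R25), with the R14 pair at 114 and 75.8 CPM. Clone R25 was 3.45 times the mean of the other Ofd1 libraries, while the R14 pair was inside the parental range and R16 was below every parental library.

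Esyt1, the lipid-transfer tether, gave 73.4, 64.3 and 143 CPM in parental cells and 36.3 and 34.4 CPM with sonidegib, the shallowest difference of the 8 genes that were below every parental library. The clones measured 152 and 108 CPM (Sufu) and 147, 129.9, 119 and 132 CPM (Ofd1). Every clone library lay above parental replicates 1 and 2, and parental replicate 3 lay among them.

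Susd4, the complement regulator, did not share the low sonidegib level. Its parental levels were 3.67, 3.74 and 27.9 CPM, while the sonidegib libraries stood at 3.77 and 3.84 CPM. Sufu clone R13 measured 14.5 CPM and clone R1 2.65 CPM, a 5.50-fold spread within the class. The Ofd1 libraries were even, at 22.6, 27.4, 25.9 and 31.5 CPM. They stood above both Sufu clones and beside parental replicate 3, so the sonidegib level of Susd4 was low against the Ofd1 libraries, Sufu clone R13 and parental replicate 3.

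9530053A07Rik measured 81.0, 66.7 and 56.1 CPM in the parental libraries and 8.58 and 9.44 CPM after sonidegib. The Sufu clones (67.2 and 73.2 CPM) were inside the parental range. All Ofd1 libraries (19.0, 35.5, 15.96 and 25.8 CPM) lay between the sonidegib and the parental libraries, with no overlap with either.

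D630003M21Rik gave 48.2, 62.0 and 115 CPM in parental cells and 5.87 and 6.94 CPM with sonidegib, the deepest difference of the 9. It reached 119.6 and 135 CPM in the Sufu clones, just above parental replicate 3, and 44.3, 82.7, 79.1 and 35.9 CPM in the Ofd1 libraries. The Ofd1 libraries crossed the low end of the parental range and stayed below both Sufu clones.

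Per kilobase of the longest transcript, the scale on which genes can be ranked, Hpca was the most abundant of the 9 in parental cells at a mean of 65.7 CPM per kb. Nptx1 followed at 47.8 CPM per kb. Susd4 was the least abundant, at 3.94 CPM per kb. After sonidegib the range narrowed to 1.14 CPM per kb (9530053A07Rik) up to 13.5 CPM per kb (Hpca). In the Sufu clones Hpca stood at 464 CPM per kb and Nptx1 at 93.3 CPM per kb.

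The depth of the sonidegib difference depended on the parental library for most of the 9. Against parental replicates 1, 2 and 3 in turn, the sonidegib mean of Nptx1 was 3.14, 4.62 and 18.2 times lower, and that of Hpca 2.85, 3.21 and 8.50 times. For N4bp3 the ratios were 2.06, 1.77 and 5.94, and for Esyt1 2.07, 1.82 and 4.05. Susd4 gave 0.964, 0.983 and 7.32, so its whole difference lay in parental replicate 3. D630003M21Rik kept a deep difference throughout, with ratios of 7.52, 9.67 and 17.95. The ratios of 9530053A07Rik (8.98, 7.40 and 6.22), Shisa2 (4.22, 3.80 and 3.63) and Tmtc1 (6.65, 5.59 and 9.72) moved least, as did those of Gli1 (27.1, 26.6 and 29.4).

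**Figure D2:**
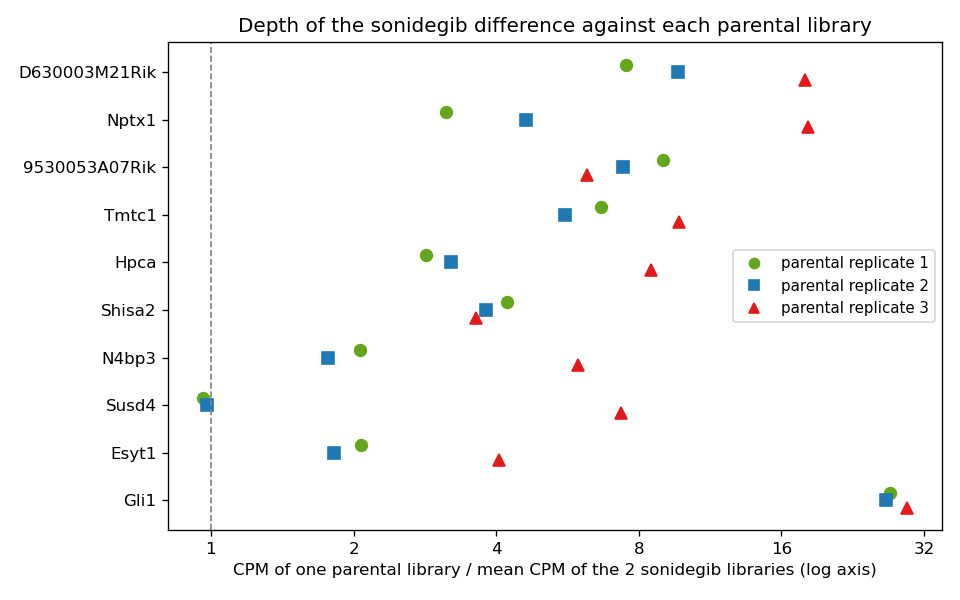
CPM of each parental library divided by the mean CPM of the 2 sonidegib libraries, on a log axis, with 1 row per gene in the order of the mean ratio and Gli1 as a reference; the dashed line marks equal levels. The 3 points of Gli1, Shisa2 and 9530053A07Rik sit close together, those of Nptx1 run from 3.14 to 18.2, and the Susd4 points for replicates 1 and 2 lie on the line.

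Parental replicate 3 was at least 2-fold above both other parental libraries for 4 of the 9 genes (Hpca, Nptx1, N4bp3 and Susd4), against 4.82% of the 12615 genes, and at least 1.5-fold above both for 6, against 10.4%. The choice of the genes could draw on parental levels, and its part in these shares was not tested. The summed level of neuron markers did not run with these levels: it was lowest in parental replicate 3 (771 CPM) and reached 1305 CPM in replicate 1. Within that list Tubb3, Map2, Dcx, Snap25, Syp, Syn1, Gap43 and Cntn2 were lowest in parental replicate 3. Rbfox3 was instead highest there, at 199, 164 and 206 CPM in parental replicates 1 to 3. After sonidegib the neuron markers summed to 2048 and 1270 CPM and the granule progenitor markers to 3438 and 3837 CPM, the latter against 1992 to 2256 CPM in parental cells. In the edgeR fit 0 of 9 tested neuron markers and 0 of 7 granule progenitor markers were called, with 4 of each at an unadjusted p under 0.05 and medians of 0.64 and 0.83 log2 units, where the median of all genes was 0.04. Of those neuron markers Rbfox3 was lower (-0.58 ± 0.22) and the other 3 higher. Astrocyte markers summed to 183 to 248 CPM in parental cells and to 385 and 343 CPM after sonidegib, with 0 of 3 tested called and 1 at an unadjusted p under 0.05. That marker was Gfap, an intermediate filament protein of astrocytes, at 14.02, 15.9 and 35.5 CPM in parental cells and 101 and 106 CPM after sonidegib. Aqp4 was at 0 in all parental and sonidegib libraries. The part of these cell markers in the levels of the 9 genes was not tested. With a trend on transcript length taken out of each library, the sonidegib differences of the longest transcripts, Tmtc1 and 9530053A07Rik, were -2.40 and -2.49 log2 units, against -2.88 and -2.92 without that step.

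The comparison of Sufu clones with parental cells asks how these genes stood in clones mutant for a repressor of the Gli proteins. Hpca was the farthest apart, with a log2 fold change of 2.84 ± 0.48 (SE) and both clones above all parental libraries. N4bp3 gave 1.69 ± 0.52, Nptx1 0.98 ± 0.73, D630003M21Rik 0.77 ± 0.36 and Esyt1 0.49 ± 0.37. Tmtc1 (-0.01 ± 0.25), 9530053A07Rik (0.06 ± 0.19), Shisa2 (-0.29 ± 0.22) and Susd4 (-0.43 ± 1.11) had values nearer to 0 or below it. Of the 9 genes, 3 (Hpca, N4bp3 and D630003M21Rik) had both clones above all parental libraries, against 11.1% of the 12615 genes, and 0 had both below, against 15.5%. The choice of the genes could draw on high clone levels, so nothing is read from these shares.

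The edgeR quasi-likelihood test with Benjamini-Hochberg adjustment called 0 of the 9 in that contrast, and 0.0% of all 13854 genes tested. Adjusted p was 0.235 for Hpca and 0.440 for N4bp3, the 2 with an unadjusted p under 0.05. DESeq2 called these 2 genes, with adjusted p of 3.37e-07 and 0.0336, where it called 2.4% of genes. Without parental replicate 3, the highest parental library for both, the edgeR test called 0.0812% of all genes, both of these among them. Their log2 fold changes were then 3.52 (adjusted p 0.0204) and 2.46 (adjusted p 0.0416). Leaving out parental replicate 1 or 2 instead gave 0 calls over all genes. The edgeR adjusted p was then 0.870 and 0.946 for Hpca, and 0.953 and 0.946 for N4bp3. Hpca overlaps Tmem54 on the opposite strand over 57 of its 2922 exon bases, and the counting strand is not given in the sources used here. Per kilobase, the group means of Tmem54 were 15.96 CPM in the Sufu clones and 2.58 CPM in parental cells, against 464 and 65.7 CPM for Hpca.

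In the Ofd1 clones against parental cells the 9 genes gave differences of both signs. 9530053A07Rik had a log2 fold change of -1.49 ± 0.27 and Shisa2 of -0.57 ± 0.19, and these were the 2 of 9 whose Ofd1 libraries all lay below every parental library, against 7.65% of the 12615 genes. Hpca gave 1.22 ± 0.39, Susd4 1.20 ± 0.68, N4bp3 0.55 ± 0.43, Tmtc1 0.53 ± 0.51 and Esyt1 0.50 ± 0.26, though 0 of the 9 had all Ofd1 libraries above all parental ones, against 5.75%. The same limit on reading the shares holds here. Nptx1 (-0.04 ± 0.54) and D630003M21Rik (-0.31 ± 0.37) were within 1 SE of no difference.

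The edgeR test called 0 of the 9 there, while it called 0.363% of 13779 genes. Unadjusted p was under 0.05 for 3 genes, with adjusted p of 0.0619 for 9530053A07Rik, 0.215 for Hpca and 0.230 for Shisa2. DESeq2, which called 5.46% of genes, called 9530053A07Rik (adjusted p 2.44e-05) and Hpca (adjusted p 0.0239). Without parental replicate 3 the edgeR test called 2.36% of all genes and 4 of the 9: Hpca at 1.88 (adjusted p 0.0143), Susd4 at 2.85 (adjusted p 0.00189) and Esyt1 at 0.93 (adjusted p 0.0211) higher, and 9530053A07Rik at -1.62 (adjusted p 0.0429) lower. That fit counted the 2 R14 libraries separately. Leaving out parental replicate 1 or 2 instead gave 0 calls over all genes. With clone R14 summed and all parental libraries kept, 1 gene was called. Without clone R25 the Tmtc1 difference was -0.17 instead of 0.53.

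**Figure D3:**
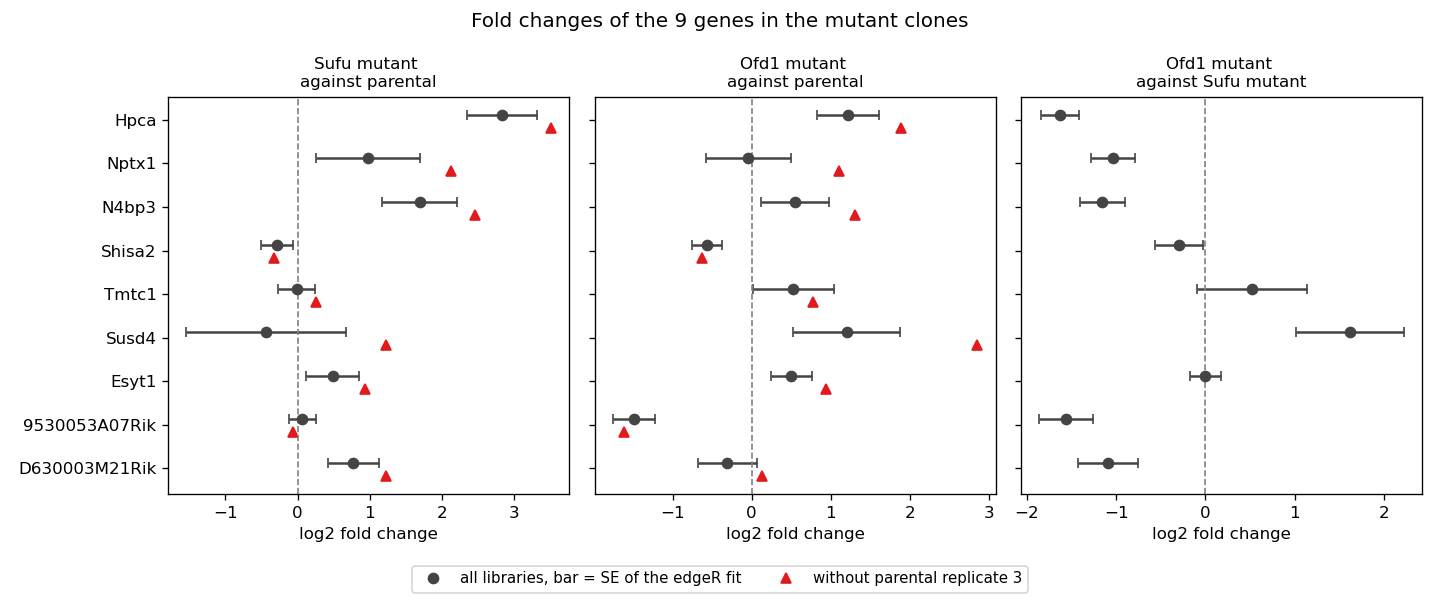
Log2 fold changes of the 9 genes in the Sufu and Ofd1 clones against parental cells and of Ofd1 against Sufu clones; circles are the edgeR fits on all libraries with bars of 1 SE, and triangles the fits without parental replicate 3. In the clone against parental panels the triangles of Hpca, Nptx1, N4bp3 and Susd4 sit well to the right of the circles, while those of Shisa2 and 9530053A07Rik sit close to them.

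Set against each other, without the parental libraries, the clone classes lay apart for 6 of the 9 genes. Hpca was -1.63 ± 0.21 log2 units in Ofd1 against Sufu clones, 9530053A07Rik -1.56 ± 0.30, N4bp3 -1.15 ± 0.25, D630003M21Rik -1.09 ± 0.34 and Nptx1 -1.03 ± 0.25. For all 5 the 4 Ofd1 libraries lay below both Sufu clones, a pattern of 8.27% of the 12615 genes. Susd4 alone had all Ofd1 libraries above both Sufu clones, at 1.62 ± 0.60, against 10.2% of genes. A high level in either clone class could have entered the choice of the genes, so nothing is read from these 2 shares. Shisa2 (-0.30 ± 0.27), Tmtc1 (0.53 ± 0.62) and Esyt1 (0.00 ± 0.17) were within 1.5 SE of no difference.

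None of these passed the edgeR test over all genes: 0 of the 9 were called, against 0.00713% of 14026 genes, while 6 had an unadjusted p under 0.05. Adjusted p was 0.268 for Hpca and between 0.288 and 0.514 for the other 5. DESeq2 called Hpca (adjusted p 4.42e-08), 9530053A07Rik (0.000667), N4bp3 (0.00829) and Nptx1 (0.0228), where it called 1.84% of genes. Without Sufu clone R13 the edgeR test called Susd4 at 3.33 (adjusted p 0.0484) and 0.0765% of all genes. Clone R1 is then the only Sufu library and is assumed to vary like the Ofd1 libraries. Gli1 measured 229 and 238 CPM in the Sufu clones and 143, 126, 187 and 69.9 CPM in the Ofd1 libraries, so its Ofd1 libraries were below both Sufu clones. Not every Hedgehog target shared that pattern: Hhip measured 285 CPM in Ofd1 clone R25, against 160 and 246 CPM in the Sufu clones. Of the 9 Hedgehog targets listed, 7 had a negative log2 fold change in Ofd1 against Sufu clones, and 0 were called.

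Against the sonidegib libraries, which the rule used, both clone classes are given as ratios only. The Sufu mean was 34.3 times the sonidegib mean for Hpca and 2.26 times for Susd4, the ends of its range. The Ofd1 mean ran from 2.61 times the sonidegib mean for Shisa2 to 11.2 times for Hpca.

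9530053A07Rik shares sequence with its neighbour on chromosome 7. Of its 7848 windows of 75 bases, the read length, 316 (4.03%) also occur in Fcgbp, while the other 8 genes had 0 such windows in another gene. Fcgbp measured 10.03, 10.4 and 8.98 CPM in parental cells, 1.47 and 2.18 CPM with sonidegib, 12.7 and 11.6 CPM in the Sufu clones, and 3.57, 6.19, 2.63 and 4.62 CPM in the Ofd1 libraries. On transcripts of near equal length, the Fcgbp level was 12.4% to 23.0% of that of 9530053A07Rik, and the order of the groups was the same for both. With the shared windows the separate levels of this pair are uncertain, and whether reads were split between them was not tested. In the edgeR fit Fcgbp stood at -2.43 ± 0.40 log2 units under sonidegib (adjusted p 0.0847).

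**Figure D4:**
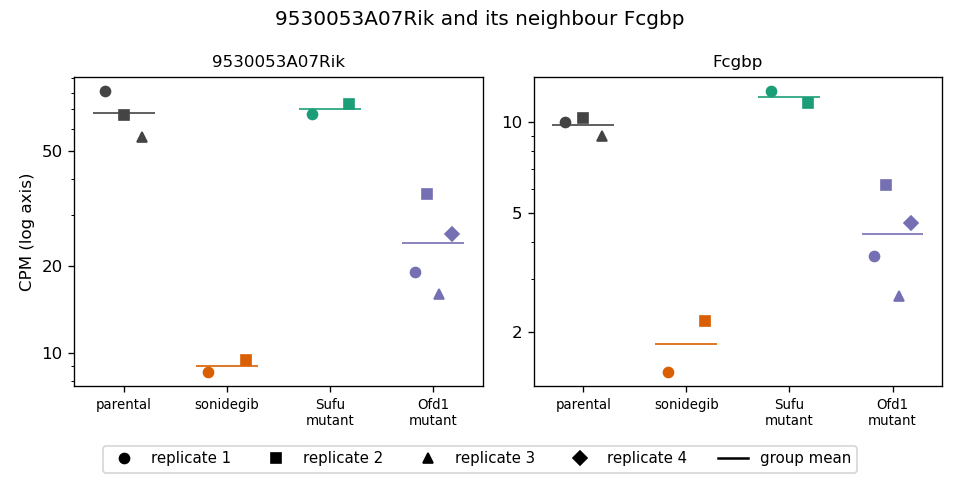
Levels of 9530053A07Rik and of its neighbour Fcgbp as TMM-scaled CPM on log axes of different range; points are libraries, their shape gives the replicate and lines are group means. In both panels the sonidegib libraries are lowest, the Ofd1 libraries lie between, and the Sufu and parental libraries are highest.

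Relatives of the 9 genes, taken from lists of their families and functions, gave no calls under sonidegib. Among neuronal calcium sensors 0 of 7 tested were called under sonidegib, and the most abundant, Hpcal1 and Ncs1, gave 0.45 ± 0.19 and -0.45 ± 0.23 log2 units. Of pentraxins and AMPA receptor subunits 0 of 3 were called. Gria2, an AMPA receptor subunit, shared the high parental replicate 3, at 5.10, 7.30 and 100.3 CPM, but its sonidegib levels were 5.64 and 39.0 CPM. In the other Shisa genes 0 of 4 were called, with Shisa9 at 1.81 ± 0.38 log2 units, opposite in sign to Shisa2. None of 9 O-mannosylation genes, of 13 genes of contacts between endoplasmic reticulum and plasma membrane, or of 9 N4bp, Lzts and Nedd4 genes was called. In these 3 lists the medians were 0.27, 0.07 and -0.05 log2 units. Genes with von Willebrand D domains had a median of -1.36 over 6 tested, with 0 called. Sushi domain genes and complement regulators had a median of -0.20 over 9 tested, with 0 called. In Ofd1 clones against parental cells, 1 of 9 tested in that last list was called, and it was lower.

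Among all lists and markers tested, calls under sonidegib were made only in the Hedgehog targets. There all 9 had a negative log2 fold change and 3 were called, with a median over the list of -2.02 log2 units. Gli1 fell by 4.80 log2 units (adjusted p 0.00287, edgeR) and Hhip, a Hedgehog-binding antagonist, fell by 3.51 (adjusted p 0.0309). D630003M21Rik, at -3.56 and not called, was chosen for its low sonidegib levels, so nothing is read from its size beside that of Hhip. The calls depended on single libraries: the edgeR test called 0 genes under sonidegib without parental replicate 3 (1405 at an unadjusted p under 0.05), 2 with parental replicate 2 left out, and 1 with either parental replicate 1 or the sonidegib library 2 left out. Leaving out the sonidegib library 1 instead gave 3263.

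For each of the 9, the genes with the most similar profile over the 11 libraries were found by the root mean square difference of centred log2(CPM + 1), among 10941 genes averaging 5 CPM or more. Near Hpca was Eda2r (0.634), and the 2 nearest genes were Lama5 (0.477) and Frrs1l (0.505) for Nptx1, and Tmem54 (0.418) and Ccdc33 (0.423) for N4bp3. For Shisa2 they were Bard1 (0.264) and Dtx1 (0.280), for Tmtc1 Plxna2 (0.470) and Mybl1 (0.483), and for Esyt1 Slc12a4 (0.221) and St18 (0.229). Susd4 was nearest to Me1 (0.520) and Sel1l3 (0.529), 9530053A07Rik to Fcgbp (0.306) and Sox18 (0.476), and D630003M21Rik to Adamts14 (0.444) and Tst (0.564). That ranking left out the 9 genes themselves. Within the 9 the smallest difference was 0.548, between Nptx1 and D630003M21Rik. The closest other member for Susd4 was Esyt1, at 0.864, so Susd4 lay farthest from the rest.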

How the data were processed

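The 11 libraries were stranded poly(A) RNA-seq from 500 ng of RNA, with single-end reads of 75 bp from 1 sequencing run, per the labels' protocols. The authors deposited raw counts per gene symbol, and the submitters' processing notes name STAR, DESeq2 and mm9. For the counting tool and its strand setting, and for tool versions, nothing was given in the sources used here. One unnamed entry (0.0131% to 0.0192% of a library) was left out of 22620.

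Pairs of groups were fitted with edgeR 4.0.16 in R 4.3.3 (TMM, filterByExpr, robust quasi-likelihood test, two-sided), with Benjamini-Hochberg adjustment over all genes tested and a threshold of 0.05. All 9 genes passed the filter in each comparison. The SE is the log2 fold change divided by the square root of F. The fit was tested on simulated data. Alternatives included DESeq2 1.42.0, RLE scaling, no filter, transcript length offsets (lengths matched for 93.7% of genes) and each library left out. Transcript models were GENCODE M21. The members and lists were chosen with earlier results of these data known. Named from each list were up to 3 called genes, otherwise the 2 most abundant; a few genes that this rule names are not reported here. The labels do not say that replicates came from separate cultures in every group, so p-values measure the spread between these libraries.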

Additional observations from a re-analysis of the deposited data

How the results depend on the processing

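Counts of calls moved with most settings. Under sonidegib the edgeR test called 9 genes, against 109 with no filter on low counts, 711 with DESeq2, 316 in a fit over all 11 libraries and 68 with the transcript length trend removed. The same settings called 4, 8, 7 and 3 of the 9 genes described, against 1. Leaving out 1 library gave 0 to 3263 genes and 0 to 4 of the 9, with 3263 and 4 reached without sonidegib replicate 1, where the lone treated library is assumed to vary like the parental ones. For Sufu clones, 0 genes became 3 with no filter, 326 with DESeq2 (2 of the 9) and 0 to 11 with a library left out (0 to 2 of the 9). For Ofd1 clones, 50 genes became 84 with no filter, 770 with DESeq2 (2 of the 9), 9 over all libraries, 0 to 329 with a library left out (0 to 4 of the 9) and 1 with clone R14 summed. For Ofd1 against Sufu clones, 1 gene became 2 with no filter, 266 with DESeq2 (4 of the 9), 0 to 11 with a library left out (0 to 1 of the 9) and 0 with R14 summed. The cause was not tested.

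Samples sharing a replicate number are not stated to share a culture, and their deviations correlated at 0.240 (replicate 1) and -0.283 (replicate 2). Sonidegib replicate 2 correlated at 0.332 with parental replicate 3, and sonidegib replicate 1 at 0.283 with parental replicate 2. The deviations of the 2 sonidegib libraries mirror each other, so their correlations are not separate values. With the replicate number as a block, 97 genes and 6 of the 9 were called under sonidegib, and 0 and 0 with the length trend also removed. Replicate number 3 was held by a parental library alone, so under this block that library added nothing to the sonidegib difference.

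Single differences that changed sign, in log2 units, were these. Susd4 under sonidegib went from -1.63 to 0.0299 with the replicate block, to 0.0242 for sonidegib replicate 1 against parental replicates 1 and 2, and to 0.0073 without parental replicate 3 (lowest with a library left out, -2.08). With parental replicate 3 as the only control, Nptx1 gave -0.15 and Esyt1 -0.16 in Sufu clones, and N4bp3 gave -0.37, Tmtc1 -0.17, Susd4 -0.0635 and Esyt1 -0.12 in Ofd1 clones. Nptx1 in Ofd1 clones was 0.0366 with R14 summed. With a library left out, ranges that crossed 0 in Sufu clones were -0.67 to 0.0090 for Shisa2, -0.17 to 0.25 for Tmtc1, -2.14 to 1.23 for Susd4 and -0.0564 to 0.21 for 9530053A07Rik. In Ofd1 clones they were -0.45 to 1.10 for Nptx1, -0.17 to 0.77 for Tmtc1 and -0.55 to 0.13 for D630003M21Rik. For Ofd1 against Sufu they were -0.59 to 0.0851 for Shisa2, -0.17 to 0.77 for Tmtc1 and -0.23 to 0.27 for Esyt1. Esyt1, at 0.00, was 0.0019 with RLE scaling, 0.0208 with no filter, 0.0034 with DESeq2 and 0.0104 over all libraries. The smallest count behind any of these values was 63, for Susd4 in Sufu clone R1.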
